A study of Mus musculus with 17 samples.

Results

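The NR4A nuclear receptors (Nr4a1, Nr4a2 and Nr4a3), the early growth response factors Egr1, Egr2 and Egr3, and the immediate early response genes Ier2 and Ier3 were followed in mouse brown adipose tissue, the heat-producing fat. They were taken by gene symbol from the deposited count table, and all 8 were found among its 21982 genes. Messenger RNA had been sequenced from 17 mice labelled C57BL/6, 1 library per mouse. Wild-type (Noc+/+) mice and mice without Nocturnin (Noc-/-), a clock-controlled NADP(H) phosphatase encoded by Noct, were single-housed for 4 h at 22 °C or 6 °C with the food removed. The 22 °C wild types were 4 mice, of which 1 was male, and the 6 °C wild types were 5 mice, also with 1 male. Of the 4 knockouts in each temperature group 3 were male. Labelled ages, given without a unit, ran from 11.14 to 23.57 in both 22 °C groups, from 11.14 to 23 in the wild types at 6 °C and from 11.14 to 17 in the knockouts at 6 °C. Food removal and single housing were common to all groups. The time of day and the part of Noct that the allele removes are not given in the sources used here.

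These genes are immediate early genes: their promoters are switched on within minutes of a stimulus, without new protein synthesis, and their mRNAs are short-lived. In brown fat, cold makes sympathetic nerves release noradrenaline, which acts through β-adrenergic receptors, cAMP and protein kinase A on the factor CREB at cAMP response elements. The NR4A proteins are orphan receptors that can bind DNA as monomers and work without a known natural ligand, so that their abundance largely sets their activity. EGR proteins are zinc-finger factors that bind GC-rich sites and respond to growth factor signalling through ERK and serum response factor.

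Library totals ran from 18410748 to 47598200 counts. Noct was lower in each knockout library (3.37 to 34.2 CPM, counts scaled to a common library size) than in each wild-type library (91.5 to 457 CPM). Every brown adipocyte marker of the 9 examined was present in each library, with Ucp1 at 3684 CPM or more. Lymphocyte and neutrophil markers summed to at most 2.3 and 1.3 CPM. Skeletal muscle markers ranged from 21.5 to 1143 CPM, with overlapping ranges in all groups. The 6 white adipocyte markers summed to 17.5 to 43.8 CPM, although 2 of them, Wnt3a and Tcf21, had no count in any library. The tissue is a bulk sample, so fewer cells of a type and less RNA per cell cannot be told apart. Wild-type 22 °C replicate 2, the only male of its group, stood apart in the CREB-responsive gene Ppargc1a. It read 493 CPM, against a group median of 116 CPM and a group mean of 204 CPM, both of which include it.

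The promoters of the NR4A genes are shown because the main results concern these receptors and they are known CREB targets, and that of Egr2 for comparison. RefSeq promoter windows on GRCm38.p6 were held for 5 of the 8 members, and the 250 bases before the start site were searched on both strands. Capitals mark matches to the core TGACG of the cAMP response element and to the EGR motif GCGNGGGCG, read on either strand. In the Egr2 window they also mark a match to the CArG box of serum response factor. The stretches lie at chr15:101266596-101266845 (Nr4a1, plus strand), chr2:57124004-57124253 (Nr4a2, minus strand), chr4:48045055-48045152 (Nr4a3, plus strand) and chr10:67537619-67537868 (Egr2, plus strand). The Nr4a3 stretch stops where an exon annotated in GENCODE vM21 begins, 153 bases before the RefSeq start, since the rest of its window lies in that exon.
Nr4a1: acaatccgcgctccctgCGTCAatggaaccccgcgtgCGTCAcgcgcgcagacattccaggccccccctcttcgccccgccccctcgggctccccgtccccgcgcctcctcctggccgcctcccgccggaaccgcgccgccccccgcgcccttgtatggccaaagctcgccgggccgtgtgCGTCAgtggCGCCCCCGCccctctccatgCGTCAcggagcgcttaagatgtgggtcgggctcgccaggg
Nr4a2: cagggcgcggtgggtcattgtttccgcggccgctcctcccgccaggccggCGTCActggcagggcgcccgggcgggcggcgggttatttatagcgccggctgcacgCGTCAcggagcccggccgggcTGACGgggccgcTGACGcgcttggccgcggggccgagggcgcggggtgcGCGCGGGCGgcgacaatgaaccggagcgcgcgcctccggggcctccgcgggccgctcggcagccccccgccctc
Nr4a3: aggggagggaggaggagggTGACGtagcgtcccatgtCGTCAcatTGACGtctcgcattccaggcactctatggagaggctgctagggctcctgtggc
Egr2: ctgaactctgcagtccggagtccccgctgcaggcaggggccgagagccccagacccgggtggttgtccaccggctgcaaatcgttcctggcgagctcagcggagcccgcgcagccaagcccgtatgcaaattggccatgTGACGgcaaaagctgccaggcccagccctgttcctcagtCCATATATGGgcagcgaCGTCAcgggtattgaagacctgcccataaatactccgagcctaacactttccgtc
The core TGACG occurred 4 times in the 250 bases of each NR4A gene. In Nr4a3, 3 of the 4 matches are in the stretch shown. At least 1 match was present in 17.8% of all 32851 promoter windows of that length, and at least 4 in 0.137% (a count asked for after the matches had been seen). Nr4a1 and Nr4a2 each held 1 EGR match (4.70% of all windows), and none of the 3 NR4A windows held the full element TGACGTCA (1.55%), the NR4A monomer site AAAGGTCA (1.34%) or a CArG box (1.47%). The Egr2 window shown, 1 of 5 that RefSeq lists for this gene, held this core 2 times and 1 CArG box, and the Ier3 window held none of the motifs searched. A match describes letters in a window and is no evidence of binding.

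Per length, the members differed widely in level. In RPKM (reads scaled to gene length and library total), Nr4a1 had the highest median over the 17 libraries (26.1), followed by Nr4a2 (11.5), Nr4a3 (7.59), Ier2 (4.89), Egr1 (1.91) and Ier3 (1.87). Egr3 (0.148) and Egr2 (0.0507) were close to the limit of detection, each with 2 libraries at 0 counts. The ranges of neighbours in this order overlapped. Egr1 varied most among the members detected everywhere, with a 97.4-fold span of CPM over the libraries, against 28.4-fold for Nr4a3, 28.1-fold for Nr4a1 and 4.68-fold for Ier2. Of the 8 genes, 7 passed the filter on low counts and were tested. Egr2 did not pass, and Egr3 reached at most 51 counts in a library, with its higher values at 22 °C. On GRCm38 (GENCODE vM21) the genes of the members lie at chr15:101254269-101274795 (Nr4a1), chr2:57106830-57124003 (Nr4a2), chr4:48045153-48086447 (Nr4a3), chr18:34859823-34864984 (Egr1), chr10:67535475-67542188 (Egr2), chr14:70077203-70082614 (Egr3), chr8:84661331-84662852 (Ier2) and chr17:35821684-35822923 (Ier3). None overlaps another annotated gene.

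The first question was how the genes respond to cold in wild-type brown fat. Nr4a3 rose and Egr3 fell, while Nr4a1, Nr4a2, Egr1, Ier2 and Ier3 did not pass the test. "Rose" and "fell" stand for an adjusted p below 0.05 in edgeR over 12486 tested genes. Of the 7 members tested, 2 passed, a share close to the 27.6% of all genes that passed (14.3% higher and 13.3% lower). The median log2 change of the 7 was -0.66, beside -0.03 for all genes tested. With libraries scaled to their totals in place of TMM, the median of all genes moved to -0.23, and 23.0% rather than 51.8% of the called genes were higher in the cold.

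Nr4a3 encodes NOR-1, the receptor of the family that was lowest per length at 22 °C. In wild types at 22 °C its levels were 13, 20.7, 32 and 40.8 CPM. At 6 °C they were 76.8, 78.6, 51.2, 52 and 101.6 CPM. Every cold library was above every library at 22 °C, an absence of overlap in this direction that 13% of all genes showed. The mean went from 26.6 ± 12.2 CPM (SD, n = 4) to 72.0 ± 21.0 CPM (n = 5), and the fitted change was 1.44 ± 0.42 log2 (SE), or 2.71-fold (adjusted p = 0.0167). At a similar size the change no longer passed when replicate 1 (1.22, adjusted p = 0.0541) or replicate 2 (1.31, 0.0543) of the 22 °C group was left out, or with females alone (1.30, 0.0571). In all, 4 of 27 alternatives lost the call, the remaining one being the fit with a replicate block, given below. Over all alternatives adjusted p ran from 0.0062 to 0.0571. Some marker sums also separated in wild types. The 9 brown adipocyte markers summed to 5550 to 7316 CPM at 22 °C and 9566 to 12524 CPM at 6 °C. These sums separated in knockouts too (5726 to 8043 and 9016 to 11832 CPM). Their largest part was Ucp1 (3684 to 7847 CPM over all libraries), and Dio2 ran from 287 to 3391 CPM. Of the 9 genes, 3 rose, 2 fell and 4 did not pass in wild types (median change 0.09 log2). In knockouts 3 rose, 1 fell and 5 did not pass. In wild types the 7 nerve and glia markers summed to 65.1 to 97.9 CPM at 22 °C and 118 to 143 CPM at 6 °C. In knockouts the nerve and glia sums overlapped (70.9 to 109 and 96.4 to 153 CPM), and in wild types the median change of the 5 such genes tested was -0.05 log2. Pmp22 and S100b made up most of the nerve and glia sums, Th was at 0.0962 CPM or less and Sox10 at 0.988 CPM or less in every library. The part of these markers in the result was not tested.

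Nr4a1 encodes Nur77, the most abundant receptor of the family here. It read 128, 38.3, 198 and 218 CPM in wild types at 22 °C, and 112, 55.5, 70.4, 54.4 and 141 CPM at 6 °C. The groups overlapped, and replicate 2 at 22 °C, the only male of its group, was the lowest of all 9 wild types. The fitted change was -0.66 ± 0.59 log2 (95% interval -1.91 to 0.58, adjusted p = 0.433), and -0.94 (adjusted p = 0.304) without that replicate.

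Nr4a2 encodes Nurr1, best known for its role in dopamine neurons. It read 53.1, 26.9, 70.8 and 71.7 CPM at 22 °C and 65.7, 44.6, 67.1, 37.6 and 76 CPM at 6 °C. These groups covered nearly the same range (0.09 ± 0.35 log2, 95% interval -0.65 to 0.83, adjusted p = 0.877). The sign of this value changed with library totals as the scale (-0.11) and without wild-type 22 °C replicate 2 (-0.0756).

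Egr1, the prototype of its family, read 69.5, 28.4, 9.55 and 41.5 CPM in wild types at 22 °C and 18.2, 8.71, 7.72, 1.66 and 7.29 CPM at 6 °C. All cold values but one lay below all 22 °C values. The mean was 37.2 ± 25.2 CPM (n = 4) at 22 °C and 8.72 ± 5.99 CPM (n = 5) at 6 °C, and the fitted value of -2.12 ± 0.80 log2 narrowly missed the threshold (adjusted p = 0.0576). It passed in 9 of 27 alternatives, with adjusted p from 0.0208 to 0.158 and values from -2.60 to -1.81. Among those 9 were the fits that left out wild-type 22 °C replicate 3 (-2.45, adjusted p = 0.0397), wild-type 6 °C replicate 2 (-2.60, 0.0496), knockout 22 °C replicate 1 (-2.11, 0.0267) or 4 (-2.11, 0.0361), or knockout 6 °C replicate 2 (-2.12, 0.0445).

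Egr3, a family member known from muscle spindles and lymphocytes, had 10 to 29 counts per library in wild types at 22 °C and 0 to 7 at 6 °C. In CPM these were 0.735, 0.192, 0.786 and 0.591 against 0, 0.155, 0.0776, 0.065 and 0.202. It fell by 2.26 on the log2 scale (SE 0.70, adjusted p = 0.0213), although replicate 2 at 22 °C was within the cold range. Egr3 passed the filter on low counts only through libraries at 22 °C, as no cold library of either genotype held more than 8 counts. A gene kept in this way is more likely to read as a fall, so the call is no independent support for one. Egr3 did not pass with replicate 3 of the 22 °C group (-2.13, adjusted p = 0.0552) or replicate 3 of the 6 °C group (-2.10, 0.0549) left out, and adjusted p over all alternatives ran from 0.00896 to 0.0552. At these counts the size of the fall is poorly determined (95% interval -3.73 to -0.78). Egr2, needed for Schwann cell myelination, had 7 to 49 counts at 22 °C and 0 to 10 at 6 °C, and with no filter on low counts its value was -2.13 (adjusted p = 0.0196). It also passed the filter in 9 of the fits that left out 1 library, with adjusted p from 0.0069 to 0.0373. As for Egr3, its higher counts were at 22 °C, with at most 10 in any cold library of either genotype. These fits also share most of their libraries, so they are no independent support for a fall of Egr2.

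Ier2, a nuclear protein induced early by growth factors, read 6.35 to 10.8 CPM at 22 °C and 5.58 to 8.69 CPM at 6 °C (-0.26 ± 0.25 log2, adjusted p = 0.459). Ier3, a stress-induced regulator of cell survival, read 2.12 to 5.09 CPM at 22 °C and 1.33 to 2.46 CPM at 6 °C (-0.79 ± 0.40, adjusted p = 0.152). Both pairs of groups overlapped, and neither gene passed.

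The same comparison in the knockouts asked whether the response occurs without Noct. Nr4a3 rose again, and Ier3 fell, while Nr4a1, Nr4a2, Egr1, Egr3 and Ier2 did not pass. These 2 of 7 compare with 21.6% of all genes (11.6% higher and 10% lower). The median change of the members was -0.20 log2, beside -0.02 for all genes.

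Nr4a3 read 14.8, 16.6, 7.22 and 3.58 CPM in knockouts at 22 °C and 26.1, 55.8, 89.3 and 50.8 CPM at 6 °C. The groups did not overlap, as for 10.8% of all genes in this direction. The mean went from 10.6 ± 6.2 CPM to 55.5 ± 26.0 CPM (n = 4 and 4), a rise of 2.38 ± 0.46 log2 or 5.19-fold (adjusted p = 0.00158). It passed in all 27 alternatives, with values from 2.06 to 2.82 and adjusted p from 3.63e-05 to 0.0105.

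Nr4a1 in knockouts at 22 °C fell into 2 levels, with 118 and 146 CPM in replicates 1 and 2 and 12.3 and 7.74 CPM in replicates 3 and 4. At 6 °C the 4 knockouts were close together, at 66.3, 76.2, 39.5 and 45.8 CPM, between those levels. The fitted change was -0.20 ± 0.63 log2 (95% interval -1.53 to 1.12, adjusted p = 0.870), and its sign depended on single animals: it was 1.26 (adjusted p = 0.140) without knockout 22 °C replicate 2, 0.03 (0.985) without knockout 6 °C replicate 1 and -0.58 (0.513) without knockout 22 °C replicate 4.

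Nr4a2 showed the same split at 22 °C, with 50.9 and 47.5 CPM in replicates 1 and 2 and 15.5 and 11.9 CPM in replicates 3 and 4, against 43.6, 47.9, 73.6 and 32.3 CPM at 6 °C. Its value was 0.75 ± 0.38 log2 (adjusted p = 0.173), and it passed without knockout 22 °C replicate 2 (1.26, adjusted p = 0.0305). Over all alternatives adjusted p ran from 0.0305 to 0.486. Replicates 2, 3 and 4 of this group were labelled male and replicate 1 female.

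Egr1 read 105, 10.4, 11 and 1.71 CPM in knockouts at 22 °C and 2.87, 9.01, 2.46 and 1.08 CPM at 6 °C. The value of -2.42 ± 0.96 log2 did not pass (adjusted p = 0.0817). It rested largely on knockout 22 °C replicate 1, the only female of its group: without it the value was -0.99 (adjusted p = 0.439), and with males alone -0.90 (0.569). It passed with no sex term (-3.08, adjusted p = 0.0297), without knockout 22 °C replicate 4 (-2.96, 0.0300) and without knockout 6 °C replicate 2 (-3.46, 0.0281).

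Egr3 had 3 to 51 counts in knockouts at 22 °C and 0 to 8 at 6 °C, with a value of -2.10 ± 0.78 log2 (adjusted p = 0.0582). It passed with replicate 3 at 22 °C (-2.38, adjusted p = 0.0398) or replicate 2 at 6 °C (-3.24, 0.0143) left out, with no sex term (0.0424) and in DESeq2 (0.0374). Egr2 had 0 to 45 counts at 22 °C and 1 to 5 at 6 °C, with 45 of them in the same replicate 1. Ier2 read 2.87 to 13.4 CPM at 22 °C and 6.17 to 7.85 CPM at 6 °C, so the cold group lay inside the 22 °C range (0.19 ± 0.27 log2, adjusted p = 0.681), and the sign changed without knockout 22 °C replicate 4 (-0.0471).

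Ier3 read 2.15, 6.22, 2.41 and 0.791 CPM in knockouts at 22 °C and 1.67, 0.773, 1.34 and 0.952 CPM at 6 °C. It fell by 1.34 on the log2 scale (SE 0.45, adjusted p = 0.0419), though the groups overlapped. Of 27 alternatives 16 lost the call, and without knockout 22 °C replicate 2, the highest, the value was -0.56 (adjusted p = 0.316). Over all alternatives adjusted p ran from 0.00795 to 0.316. In 12 of these 16 a single library had been left out: wild-type 22 °C replicates 2, 3 and 4, wild-type 6 °C replicates 2, 3 and 5, knockout 22 °C replicates 2 and 3, or any of the 4 knockouts at 6 °C.

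**Figure D1:**
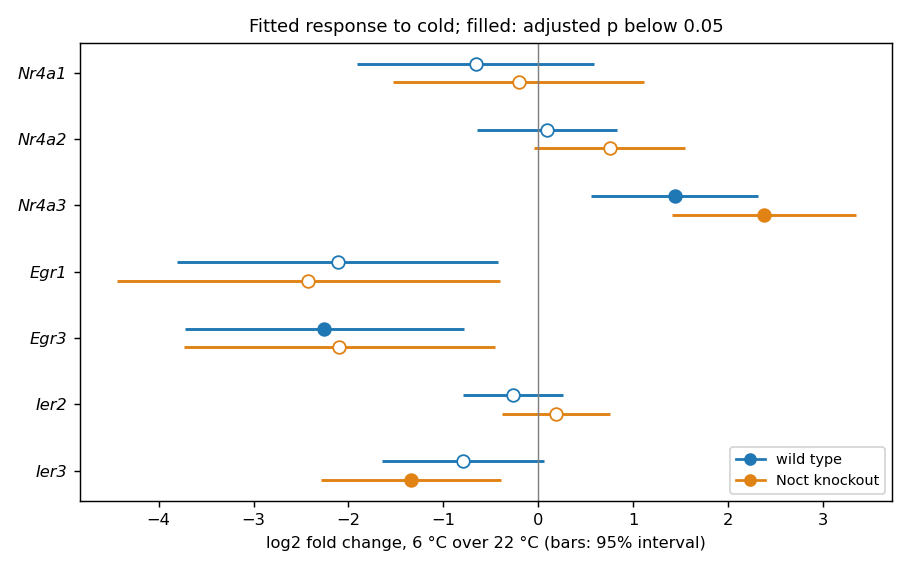
Fitted log2 fold change of 6 °C over 22 °C (x axis) for the 7 tested genes in wild types (blue) and Noct knockouts (orange), with 95% intervals; filled points have an adjusted p below 0.05. Nr4a3 is the only gene with both points filled and to the right of 0, and the points of Egr1, Egr3 and Ier3 lie left of 0.

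Nr4a3 against its relatives can be read within each library, from the share of each receptor in the summed RPKM of the 3. Nr4a3 made up 3.24, 13.6, 5.19 and 6.05% of this pool in wild types at 22 °C and 17.3, 28.2, 16, 21.7 and 18.3% at 6 °C. In knockouts it made up 3.97, 3.79, 12 and 8.96% at 22 °C and 10.4, 17.9, 30.4 and 24.3% at 6 °C. The wild-type groups did not overlap, and in the knockouts a single cold library (10.4%) lay below the highest library at 22 °C. The mean share went from 7.01 ± 4.52% to 20.3 ± 4.92% in wild types (n = 4 and 5) and from 7.19 ± 4.03% to 20.8 ± 8.59% in knockouts (n = 4 and 4).

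The share of Nr4a1 was 73.5 ± 8.66% at 22 °C and 55.8 ± 5.6% at 6 °C in wild types, and 63.2 ± 17.3% and 52.2 ± 13.8% in knockouts. Nr4a2 held 15.7 to 44.1% over all libraries. The pool itself summed to 27.9 to 127 RPKM in wild types at 22 °C and 40.1 to 98.5 RPKM at 6 °C. In knockouts it summed to 5.73 to 72.4 RPKM at 22 °C and 35.3 to 49.3 RPKM at 6 °C. In each genotype the cold range of the sum lay within the range at 22 °C. These shares are a description, with no test.

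**Figure D2:**
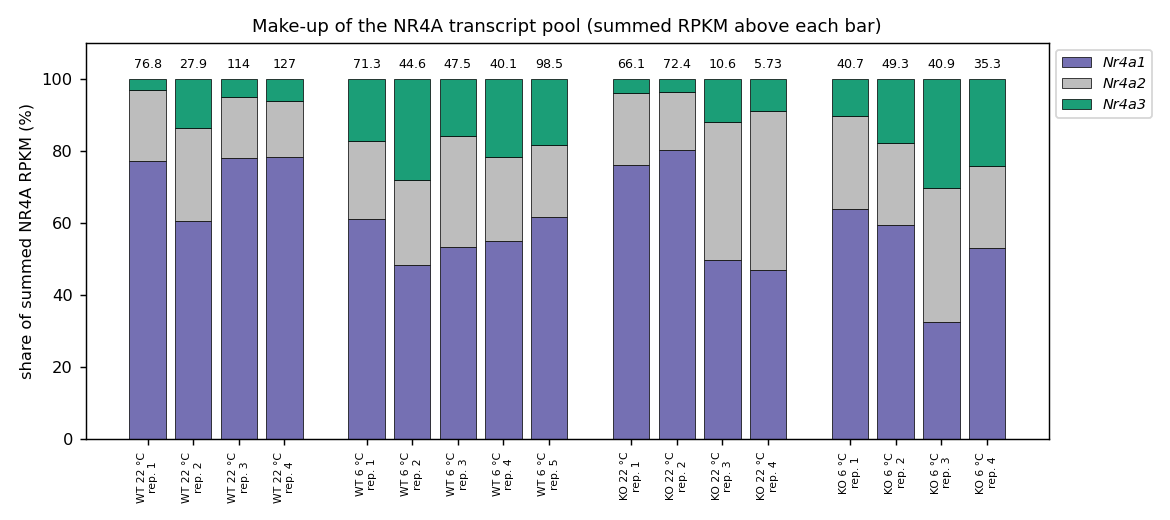
Share of Nr4a1, Nr4a2 and Nr4a3 in their summed RPKM (y axis, percent) in each of the 17 libraries, with the sum above each bar. The green part, Nr4a3, is 16 to 28.2% in wild types at 6 °C and 3.24 to 13.6% in wild types at 22 °C.

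Across the 17 libraries Nr4a1 and Nr4a2 had similar patterns, on log2 CPM (Pearson r = 0.87, Spearman rho = 0.70). After each group's mean was taken out, r was 0.89 and rho 0.85. Without the 2 libraries farthest from the median of Nr4a1, r was 0.61 over all libraries and 0.83 within groups. Here and below the 2 libraries were picked separately for each value. For the values within groups they were picked after the group means were taken out. Nr4a1 and Nr4a3 had r = 0.49 over all libraries and r = 0.65 within groups, and Nr4a2 and Nr4a3 had r = 0.74 and 0.73. Without the 2 libraries farthest from the median of Nr4a2 these were 0.35 and 0.67. Without the 2 libraries farthest from the median of Nr4a1, r of Nr4a1 and Nr4a3 was -0.26 over all libraries and 0.43 within groups, so that the pooled value rested on knockout 22 °C replicates 3 and 4. Egr1 and Ier2 had r = 0.65 over all libraries and 0.82 within groups, and 0.54 within groups without the 2 farthest. These are 4 of 21 pairs, described with no test, and all pairs share each library's scale.

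**Figure D3:**
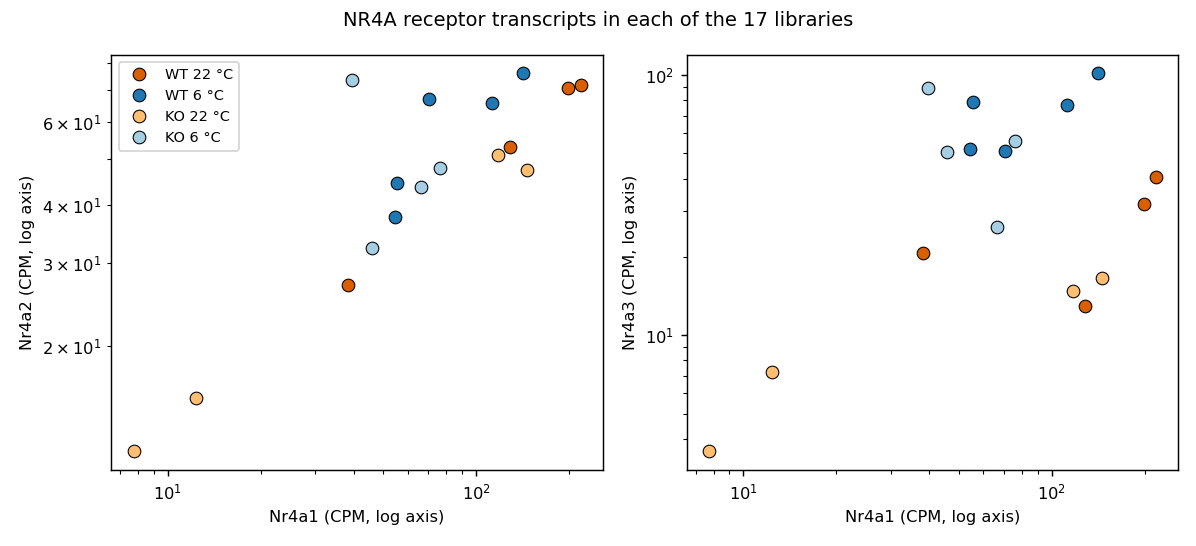
CPM of Nr4a2 (left) and Nr4a3 (right) against that of Nr4a1 in the 17 libraries, on log axes, coloured by group. On the left the groups lie along 1 band (r = 0.87). On the right each cold group lies above the 22 °C libraries of its own genotype. Knockout 6 °C replicate 1 (26.1 CPM of Nr4a3) lies below wild-type 22 °C replicates 3 and 4 (32 and 40.8 CPM).

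Single animals stood out for several members at once. Knockout 22 °C replicate 4 was the lowest of its group for 7 of the 8 genes, and wild-type 6 °C replicate 5 the highest of its group for 6. Knockout 22 °C replicate 1 was the highest for 5 (Egr1, Egr2, Egr3, Ier2 and Nr4a2), and replicate 2 for the other 3 (Nr4a1, Nr4a3 and Ier3). Wild-type 22 °C replicate 2 was the lowest for 4 (Nr4a1, Nr4a2, Egr3 and Ier3). Marker sums of other cell types in knockout 22 °C replicates 1 to 4 were 54.2, 252, 491 and 907 CPM for skeletal muscle and 483, 499, 485 and 693 CPM for pericytes and smooth muscle. Both were highest in replicate 4, the library lowest for 7 of the 8 genes, as were the sums for brown adipocytes (8043 CPM, against 5726 to 6408 CPM) and for nerve and glia (109 CPM, against 70.9 to 98.0 CPM). Endothelial markers summed to 433, 436, 401 and 446 CPM and macrophage markers to 57.7, 49.6, 55.1 and 53.0 CPM. The part of these cell types in the members' values was not tested.

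**Figure D4:**
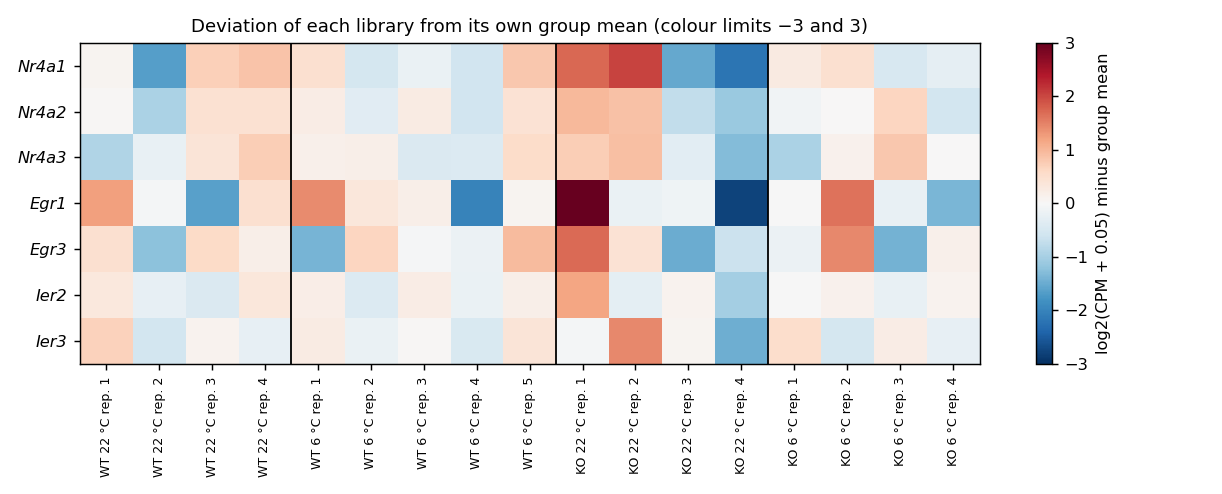
Colour shows log2(CPM + 0.05) of 7 genes in each library minus the mean of its group, from blue (below) to red (above), with colours ending at -3 and 3. Knockout 22 °C replicate 4 is blue for every gene, and replicate 1 is red for all except Ier3.

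Genotype was compared at each temperature. No member passed at 22 °C, where 0.0160% of all genes did, or at 6 °C, where 0.0400% did. At an unadjusted p below 0.05 there was 1 member of 7 at 22 °C and none at 6 °C, beside 486 and 393 of all 12486 genes. That member was Nr4a3, which at 22 °C read 10.6 ± 6.2 CPM in knockouts and 26.6 ± 12.2 CPM in wild types (-1.33 ± 0.47 log2, adjusted p = 0.998). Knockouts ran from 3.58 to 16.6 CPM and wild types from 13 to 40.8 CPM, so the groups overlapped. The other 6 members had values from -0.49 to 0.57 at 22 °C, and all 7 lay between -0.52 and 0.73 at 6 °C. These values moved widely with single mice and with the sex term. At 22 °C Egr1 went from -0.20 to -2.27 without knockout replicate 1, and Nr4a1 from -0.43 to -1.44 without knockout replicate 2. Without wild-type 22 °C replicate 2, Nr4a1 was at -0.89, Nr4a2 at -0.76, Egr1 at 0.08 and Ier3 at -0.23. At 6 °C Egr1 went from -0.51 to -1.55 without knockout replicate 2. Males were 2 of 9 wild types and 6 of 8 knockouts, and sex was a term of the model. Without that term Nr4a1 was at -1.04 and Nr4a2 at -0.82 at 22 °C, while Egr1 stayed at -0.20. At 6 °C Nr4a1 was then at -0.61 and Egr1 at -1.16, while Nr4a3 hardly moved (-0.39 to -0.38).

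The difference between the cold responses passed for none of the 7 members, as against 0.00801% of all genes, and none had an unadjusted p below 0.05, beside 310 of all 12486 genes. For Nr4a3 the knockout response exceeded the wild-type response by 0.94 ± 0.60 log2 (95% interval -0.32 to 2.20, adjusted p = 1.00). For Egr1 and Egr3 the intervals reached from -2.91 to 2.29 and from -2.13 to 2.45. The 2 cold responses compared different libraries, but both came from the same fit, with a common sex term and a shared estimate of the spread.

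The lists that follow were chosen with earlier results of these data known, so their shares beside all genes are descriptions only. Among other immediate early genes, the first list held 28 tested members. Of these, 13 rose and none fell in wild types, and 14 rose and none fell in knockouts. Of all genes 14.3% rose in wild types and 11.6% in knockouts. The medians were 0.50 and 0.68 log2, against -0.03 and -0.02 for all genes. Arc, an immediate early gene best known at synapses, rose by 2.80 ± 0.57 in wild types and 2.94 ± 0.62 in knockouts. Atf3, a stress-induced factor of the AP-1 type, rose by 2.71 ± 0.53 and 3.44 ± 0.57, and the small Maf factor Maff by 2.35 ± 0.35 and 2.38 ± 0.36. Errfi1, a feedback inhibitor of the EGF receptor, rose by 1.17 ± 0.25 in wild types, and Ppp1r15a, a regulatory subunit of an eIF2α phosphatase, by 1.43 ± 0.22 in knockouts. Fos (-1.24 ± 0.72, adjusted p = 0.209) and Junb (-0.75 ± 0.41, 0.188) did not pass in wild types. In knockouts Fos read -1.96 ± 0.95 (adjusted p = 0.154) and Junb -0.45 ± 0.45 (0.533). Fos and Junb were named after their values were seen.

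Of 19 genes of the cAMP and CREB pathway, 8 rose in wild types and 9 in knockouts, and none fell, beside the same 14.3% and 11.6% of all genes that rose. Ppargc1a, a coactivator of thermogenic genes, rose by 2.86 ± 0.35 and 3.37 ± 0.35. The phosphodiesterase Pde4d rose by 1.07 ± 0.15 and 1.49 ± 0.15. Crem, which also encodes the inducible repressor ICER, rose by 0.91 ± 0.19 and 1.03 ± 0.20, and the clock gene Per1 by 0.96 ± 0.26 and 1.01 ± 0.27. Creb1 itself (0.14 ± 0.19 in wild types, -0.22 ± 0.20 in knockouts) did not pass, and it was named after its values were seen.

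Of 14 genes of the ERK and serum response factor pathway, 3 fell and none rose in wild types, not far from the 13.3% of all genes that fell. There Elk3, a ternary complex factor, fell by 0.71 on the log2 scale. The SRF coactivator Mkl2 fell by 0.43 and the kinase Rps6ka1 by 0.91. In knockouts Elk3 fell by 0.59, while Srf (0.75 ± 0.25) and the ternary complex factor Elk1 (0.48 ± 0.12) rose, beside 11.6% of all genes that rose and 10% that fell. None of the 5 partners and corepressors passed in either genotype: Rxra, a heterodimer partner of Nr4a1 and Nr4a2, read -0.31 ± 0.14 and -0.03 ± 0.15, and the EGR corepressor Nab1 0.03 ± 0.11 and -0.10 ± 0.12.

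Among genes described elsewhere as EGR1 targets, Vegfa, a growth factor for blood vessels, rose in wild types (0.63 ± 0.14). In knockouts Icam1 rose (1.38 ± 0.25) and Pdgfa fell (-0.65 ± 0.20), 1 gene of 8 in each direction and near the 11.6% and 10% of all genes. Of 8 glucose-handling genes described as Nr4a1-dependent in muscle, Bpgm, a mutase of red-cell-type glycolysis, fell in wild types (-0.44 ± 0.13), which is near the 13.3% of all genes that fell and no result about the list. None passed in knockouts, where the glucose transporter Slc2a4 read 0.08 ± 0.15 and the phosphofructokinase Pfkm -0.23 ± 0.12.

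The genes whose log2 CPM over the 17 libraries was most like each member were sought among 10492 others. For Nr4a3 they were the ERK phosphatase Dusp6 (Pearson's r = 0.92) and the nuclear receptor corepressor Nrip1 (0.92). For Nr4a1 they were the homeobox gene Hlx (0.81) and the interferon regulatory factor Irf4 (0.80), and for Nr4a2 the homeobox gene Six4 (0.88) and the insulin receptor substrate Irs2 (0.86). For Egr1 they were Btg2 (0.92), an antiproliferative immediate early gene, and the mRNA decay factor Zfp36l1 (0.84). Ier2 was nearest to Junb (0.82) and Zfp36 (0.80), Ier3 to Zfp36l2 (0.87) and Hs1bp3 (0.83), and Egr3 to Pank2 (0.88) and Htra1 (0.88). Each r was the highest or next highest of 10492 and is given as a description.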

How the data were processed

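Counts per gene symbol and RPKM values were deposited by the authors for 17 libraries. The submitters' processing notes list STAR, HTSeq, mm10 and GRCm38.p6; versions, annotation and strand setting are not given in the sources used here. The deposited RPKM values are the deposited counts scaled to length and column total: in 10708 genes the implied length agreed between libraries to a relative spread of 3.03e-15.

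For these counts edgeR 4.0.16 was run under R 4.3.3 (filterByExpr, TMM, quasi-likelihood test), with a mean per group and sex as a term, in 1 fit of all libraries with 12 residual degrees of freedom. P values were adjusted by Benjamini-Hochberg over 12486 genes, threshold 0.05. SE is the fitted coefficient divided by the root of its F. CPM use TMM-scaled library sizes, and log2 CPM for correlations used a prior count of 2. RPKM served to compare levels between genes. Replicates are different mice. No 2 libraries held the same counts. Alternatives were another scaling, filters, DESeq2 1.42.0, other covariates, subsets of samples and leaving out each library.

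The members and lists were chosen with earlier results of these data known. Named genes were all members, Noct, up to 4 passing genes with the largest change per list and cold response (or the 2 most abundant where none passed), and the 2 most alike genes per member with a mean CPM of at least 1. Sequences are from RefSeq (GRCm38.p6), and exons from GENCODE vM21. One gene of the list of described EGR1 targets is not reported here.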

Additional observations from a re-analysis of the deposited data

Results flagged for a closer look

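Egr1 in knockout 22 °C replicate 1 lay far from the rest of its group, at 105 CPM with the nearest library at 11 CPM, a gap of 0.91 of the group's range. It was the only such library in 32 groups examined (8 genes in 4 groups). Chance alone flags about 1 group in 20, so 1 flag in 32 groups is no more than chance gives. The same library read 1.29 CPM for Egr2 and 1.46 CPM for Egr3, the highest CPM of both genes in the study. In RPKM, Egr2 was highest in wild-type 22 °C replicate 1 (0.418, against 0.402 in knockout 22 °C replicate 1).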

How the results depend on the processing

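The rise of Nr4a3 in knockouts passed in all 27 alternatives, and in wild types in 23 of 27. The count of members past the threshold was less stable. In wild types it was 2, and 1 with a filter of 1 CPM in 4 libraries (which removes Egr3) and with the majority sex alone; leaving out 1 library gave 1 to 4. It was 1 without wild-type 22 °C replicate 1 or wild-type 6 °C replicate 3. Without knockout 22 °C replicate 4 or knockout 6 °C replicate 2, Egr2 passed the filter and was counted too (adjusted p = 0.00911 and 0.0164). The limit given above for Egr2 applies there. The count of members was then 4. In knockouts it was 2, and 4 with no sex term and 1 with sex and age, with the replicate block, with only the groups compared and with the majority sex alone; leaving out 1 library gave 1 to 3. It was 1 without wild-type 22 °C replicate 2, 3 or 4, wild-type 6 °C replicate 2, 3 or 5, or knockout 6 °C replicate 1, 3 or 4. The cause was not tested. No member passed in the genotype comparisons or in the difference between responses under any alternative, though the sign changed for 4, 6 and 3 of 7 members respectively.

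In wild types the value of Nr4a2 (0.09) was -0.11 with library totals, -0.0234 with the replicate block and -0.0823 with females alone, and -0.0756 to 0.24 on leaving out 1 library. In knockouts Nr4a1 (-0.20) was 0.56 with the replicate block and -0.58 to 1.26 on leaving out 1 library, and Ier2 (0.19) was -0.0471 to 0.58 on leaving out 1 library. None of these passed. Same-numbered libraries deviated together in some pairs only (r from -0.42 to 0.44), so the replicate numbers do not pair the mice. With the block Nr4a3 in wild types read 1.36 (adjusted p = 0.0550) and Egr1 -2.31 (0.0424). Over all genes, 2697 were called in knockouts, but 1589 with only the groups compared and 1647 with males alone. Genotype calls over all genes ran from 0 to 10 at 22 °C (2 as reported) and from 3 to 12 at 6 °C (5 as reported). For Egr2 and Egr3, with at most 51 counts in a library, depth limits the precision of any fold.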

Other observations

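Fos, Junb and Btg2, immediate early genes that do not belong to the 8, were highest in the library that was highest for Egr1. In knockout 22 °C replicate 1 Fos read 13.1 CPM, against 0.34 to 0.48 CPM in the other knockouts at 22 °C. Junb read 14.1 CPM there against 1.33 to 4.11 CPM, and Btg2 24.9 CPM against 6.37 to 9.46 CPM. Among wild types at 22 °C, replicate 1 was the highest for Egr1 (69.5 CPM), Fos (7.50 CPM), Junb (9.25 CPM) and Btg2 (17.4 CPM), while Nr4a3 was lowest in that library (13 CPM). These values were picked after the data had been seen.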
